A study of Mus musculus with 4 samples.

Results

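The aryl hydrocarbon receptor (AHR) and its classical target genes were examined in group 3 innate lymphoid cells (ILC3s) that had or lacked Brg1. The set comprised 7 genes chosen by symbol among the 53379 genes of the deposited expression table: Ahr, its partner Arnt, its repressor Ahrr, and the target genes Tiparp, Cyp1a1, Cyp1b1 and Nqo1. All 7 were listed, and 4 of them (Ahr, Ahrr, Arnt and Tiparp) passed the filter on low values. None of the 4 differed between the groups at an adjusted p under 0.05, as 0.305% of all 14739 genes tested did (0.224% lower and 0.0814% higher in Brg1-deficient ILC3s). Ahr, Arnt and Tiparp were present at overlapping levels in both groups, Ahrr was at a low level and higher in both Brg1-deficient libraries than in both controls, and Cyp1a1, Cyp1b1 and Nqo1 were below 1 FPKM in all 4 libraries. FPKM is the number of fragments scaled to transcript length and to the total mapped in a library.

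The ILC3s came from the small intestinal lamina propria of mixed bone marrow chimeras, in which marrow cells of both donors were given together in equal number to sublethally irradiated Rag2-/-Il2rg-/- recipients. Brg1-sufficient control cells (Thy1.2highThy1.1-CD45low) derived from Thy1.2Rag1-/-Smarca4f/f donors and Brg1-deficient cells (Thy1.2highThy1.1+CD45low) from Thy1.1Thy1.2Rag1-/-Smarca4f/f donors that also carried a Cre transgene active in ILC3s, so both groups lacked Rag1 and carried the floxed Smarca4 allele. Cells were sorted 6 to 7 weeks after transfer, and 2 libraries were sequenced per group, described in the study's methods as biological duplicates. The mice's ages and the number of recipients behind each library were not given in the sources used here.

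AHR is a ligand-activated transcription factor of the bHLH-PAS family. It rests in the cytosol with HSP90 and the co-chaperone p23, and it binds dioxins, dietary indoles and tryptophan metabolites. With ligand it enters the nucleus, pairs with ARNT and binds DNA elements built around the letters GCGTG, from which it induces Cyp1a1, Cyp1b1, Tiparp, Nqo1 and Ahrr. The AHR repressor, AHRR, competes for ARNT and for the same elements, and TIPARP, an ADP-ribosyltransferase, promotes the breakdown of AHR, so that both close a feedback loop. In the intestine AHR is known to be needed for the maintenance of ILC3s and for their production of IL-22. Brg1, the ATPase encoded by Smarca4, is known from hepatoma cells as a coactivator that AHR brings to the Cyp1a1 enhancer.

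Smarca4 had 17.1 and 16.7 FPKM in controls, against 9.98 and 9.03 FPKM without Brg1, where the mean was 56.2% of the control mean (adjusted p = 0.153 from limma). The values do not separate transcripts of the deleted allele from intact ones. All 9 markers of an ILC3 list, Il7r, Il23r and Thy1 among them, were above 1 FPKM in at least 1 library. Summed markers listed for other cells also differed between libraries, and ILC3s themselves express some of these genes. All 8 ILC2 markers were lower in both Brg1-deficient libraries, at sums of 363 and 201 FPKM in controls and of 95.06 and 121 FPKM in Brg1-deficient ILC3s. Gata3 made up most of the latter, at 74.5 and 105.2 FPKM. Ccr8 was at 51.7 and 8.41 FPKM in controls, against 0.23 and 0.24 FPKM without Brg1. For Il5 these values were 24.8 and 1.64 FPKM, against 0.32 and 0.06 FPKM. Areg, in contrast, was higher in control library 2 (58.7 FPKM) than in control library 1 (26.7 FPKM). The 10 epithelial markers summed to 12.3 and 11.6 FPKM in controls and to 23.9 and 22.8 FPKM in Brg1-deficient ILC3s, and 6 of them (Cdh1, Fabp2, Muc2, Vil1, Krt20 and Fabp1) were below 1 FPKM in all libraries. The list did not move together. Krt18 (2.02 and 3.48 FPKM in controls, 15.7 and 12.9 FPKM without Brg1) and Krt8 (0.44 and 0.38 FPKM, then 2.65 and 2.34 FPKM) carried the higher sum, whereas Epcam (1.5 and 1.79 FPKM, then 0.68 and 0.54 FPKM) and Cdh1 were lower in both Brg1-deficient libraries. Of 8 ILC1 and NK cell markers, 5 were lower and 1 was higher in both Brg1-deficient libraries. Among all genes tested, 20.2% were lower and 24.4% were higher in both, so counts of markers are to be read beside these shares. Ncr1, which encodes the activating receptor NKp46, was at 31.3 and 35.5 FPKM in controls, against 5.37 and 6.02 FPKM without Brg1. NKp46 also marks a subset of ILC3s, which expresses Tbx21 and Ifng of the same list. By flow cytometry, the study found this subset to be a smaller part of Brg1-deficient ILC3s in such chimeras. The list therefore does not separate other cells from this subset. Of 7 T cell markers, 4 were lower in both, and the list summed to 101 and 54.9 FPKM in controls, against 29.8 and 32.9 FPKM without Brg1. Donors and recipients of these genotypes lack mature T cells, so the sum is not read as an amount of T cells. Its largest term in every library was Cd4, at 43.55 and 32.75 FPKM in controls, against 25.2 and 19.8 FPKM without Brg1. The part of other cells, or of ILC3 subsets, in the results below was not tested. In bulk samples, fewer cells of a type and less RNA per cell cannot be told apart.

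To show which of the genes carry the letters of the AHR response element near their start, the core GCGTG was searched on both strands (GCGTG or CACGC) in the RefSeq promoter windows of GRCm38.p6, which reach from 250 bases before to 50 after a transcription start. Windows were found for 6 of the 7 genes, and 5 of these held the core, as did 10639 (32.4%) of all 32851 windows. Ahrr held it 3 times, Cyp1a1, Cyp1b1, Arnt and Tiparp held it in 1 place each, and the letters were not in the Nqo1 window. The matches are printed with 10 bases on either side, 5′ to 3′ on the strand of the gene, with the core in capitals.
Ahrr, chr13:74292424-74292448, minus strand: ttgaaagggcGCGTGgcaggcaggg
Ahrr, chr13:74292399-74292423, minus strand: acaaggatgtGCGTGcgccctctgc
Ahrr, chr13:74292344-74292368, minus strand: ggggcggctcGCGTGctggggtggg
Cyp1a1, chr9:57697549-57697573, plus strand: agataaggagGCGTGgccaacagac
Cyp1b1, chr17:79715123-79715147, minus strand: tcccgcccctCACGCcccaccccct
Arnt, chr3:95434351-95434375, plus strand: atagtttgggGCGTGtcttctgccc
Tiparp, chr3:65528267-65528291, plus strand: ccgtccggagCACGCgcacgggagg
A match of these letters is a description and does not show that AHR binds there.

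The 7 genes ranged from listed at 0 to among the most highly expressed genes of these cells. In Brg1-sufficient ILC3s, the order by mean FPKM was Tiparp (214), Arnt (34.9), Ahr (9.93), Nqo1 (0.41), Ahrr (0.375), Cyp1a1 (0.145) and Cyp1b1 (0.1). The first 3 were apart from their neighbours in both libraries, while the ranges of Nqo1, Ahrr, Cyp1a1 and Cyp1b1 overlapped from each gene to the next. In Brg1-deficient ILC3s the order was Tiparp (228), Arnt (35.0), Ahr (8.35), Ahrr (2.12), Nqo1 (0.28), Cyp1b1 (0.135) and Cyp1a1 (0), with no overlap between neighbours in the 2 libraries. Ahr was above 72.7% of the 21963 protein-coding genes in controls and above 70.6% of them in Brg1-deficient ILC3s. Tiparp stood above 98.3% and 98.4% of them. The target genes that hold a GCGTG near the start were thus found at both ends of the scale, Tiparp at the top and Cyp1a1 and Cyp1b1 at the bottom.

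**Figure D1:**
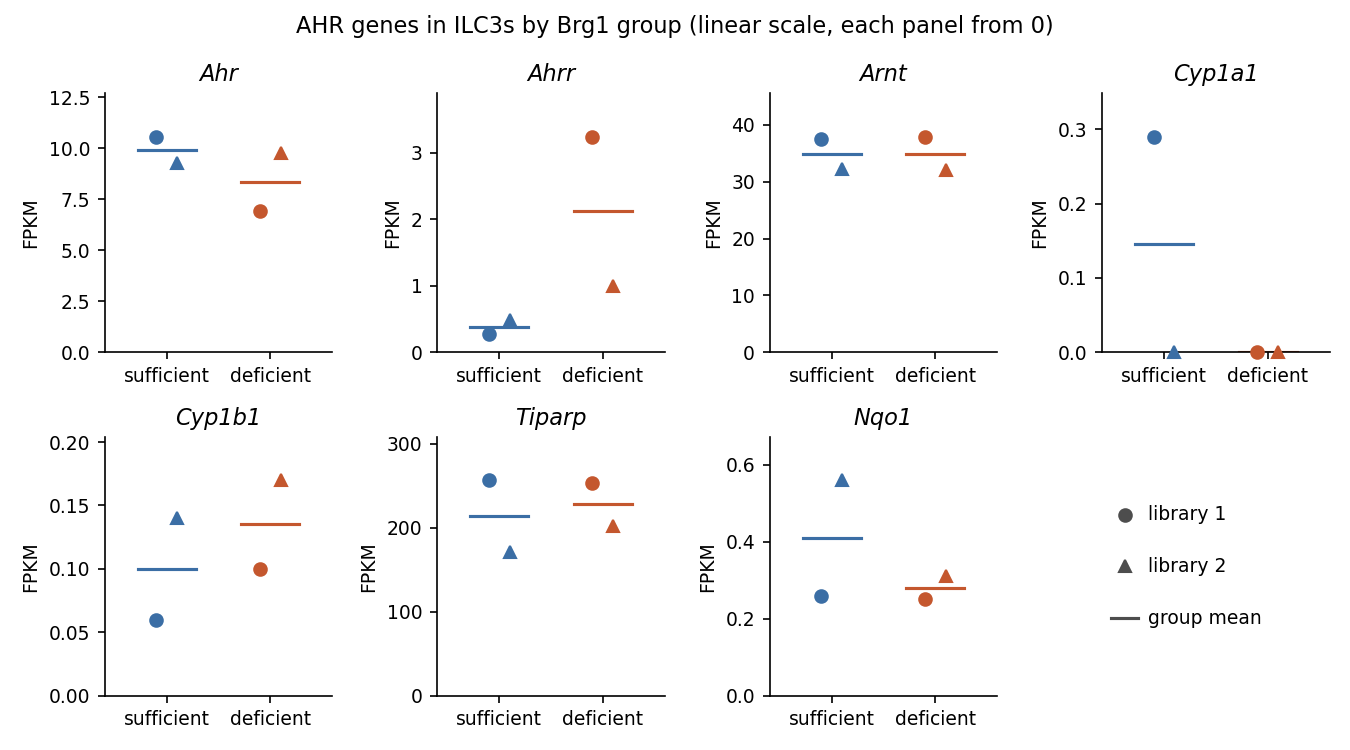
FPKM of the 7 genes (vertical axes, linear and starting at 0) in Brg1-sufficient (blue) and Brg1-deficient (orange) ILC3s. Circles are library 1, triangles library 2 and lines the group means. Only Ahrr has both Brg1-deficient libraries (3.24 and 0.99 FPKM) above both controls (0.27 and 0.48 FPKM).

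Ahr (ENSMUSG00000019256), the receptor itself, lies on the minus strand of chromosome 12 of GRCm38 from 35497974 to 35535038. Its level was 10.6 and 9.29 FPKM in controls, against 6.94 and 9.76 FPKM without Brg1. The groups overlapped, since only Brg1-deficient library 1 lay below the controls and library 2 lay between them. The means were 9.93 ± 0.905 FPKM and 8.35 ± 1.99 FPKM (SD, n = 2 each), so the Brg1-deficient mean was 84.1% of the control mean. On log2(FPKM + 1) the difference was -0.24 (standard error 0.221, adjusted p = 0.688 from limma, by Benjamini-Hochberg over 14739 genes). The 95% interval, from -0.80 to 0.32, spans folds of FPKM + 1 from 0.576 to 1.25. Without Brg1-deficient library 1 the log2 difference was -0.02, and without library 2 it was -0.46.

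Arnt (ENSMUSG00000015522), which encodes the nuclear partner that AHR shares with the hypoxia factors, lies on the plus strand of chromosome 3 from 95434388 to 95497240. Its values were 37.6 and 32.2 FPKM in controls and 37.9 and 31.99 FPKM in Brg1-deficient ILC3s. The pairs nearly coincided, and the mean of 35.0 ± 4.21 FPKM in Brg1-deficient ILC3s was 100.2% of the control mean of 34.9 ± 3.82 FPKM (SD, n = 2 each). The log2 difference of 0.0026 had a standard error of 0.169 and a 95% interval of folds of FPKM + 1 from 0.746 to 1.35 (adjusted p = 0.996 from limma). Arnt was the closest of the 7 genes to no difference between the group means.

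Ahrr (ENSMUSG00000021575), the feedback repressor, lies on the minus strand of chromosome 13 from 74211118 to 74292331. Its level was 0.27 and 0.48 FPKM in controls, against 3.24 and 0.99 FPKM without Brg1. Both Brg1-deficient libraries were above both controls, but they differed from each other 3.27-fold. The means were 0.375 ± 0.148 FPKM and 2.12 ± 1.59 FPKM (SD, n = 2 each), a 5.64-fold ratio. The log2(FPKM + 1) scale compresses differences of weakly expressed genes, and on it the difference was 1.08 (standard error 0.473, 95% interval -0.11 to 2.27), with an unadjusted p of 0.0669 and an adjusted p of 0.437 from limma. With log2(FPKM + 0.1) it was 2.04 (adjusted p = 0.397 from limma).

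Ahrr was the single gene of the 7 whose groups did not overlap, and 44.6% of all genes tested had groups that did not overlap (24.4% with Brg1-deficient ILC3s higher and 20.2% with them lower). It entered the test only through the Brg1-deficient group, whose mean exceeded the filter of 1 FPKM, and within that group through library 1. Without library 1 it fell under the filter, and the remaining log2 difference was 0.54, with library 2 at 2.64 times the control mean. Without library 2 the log2 difference was 1.63. When only protein-coding genes entered the fit the unadjusted p was 0.0243, and it was 0.0444 without the filter, with adjusted p of 0.231 and 0.785 from limma. Both Brg1-deficient libraries were also the ones with higher Krt18 and Krt8 and lower Epcam, and Brg1-deficient library 1 had the lowest summed myeloid markers, 144 FPKM against 310 to 493 FPKM in the other libraries. Their part in the Ahrr values was not tested. Depth is unknown here, so the counting error behind values of this size cannot be given.

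A single scale factor per library would cancel in the ratio of Ahrr to Ahr, but a mapping by rank, such as quantile normalization, would not. The ratio was 0.0255 and 0.0517 in controls and 0.467 and 0.101 in Brg1-deficient ILC3s. Both Brg1-deficient libraries were above both controls, and in each of the 4 libraries Ahrr was below Ahr. Brg1-deficient library 1 had at once the highest Ahrr and the lowest Ahr. The difference of the log2 ratio was 2.58 (two-sided exact permutation test, p = 0.333, adjusted p = 0.5 over 3 ratios), and 2 libraries against 2 cannot give a p below 0.33. The ratio of Arnt to Ahr was 3.56 and 3.46 in controls and 5.47 and 3.28 in Brg1-deficient ILC3s, with overlapping groups and a log2 difference of 0.27 (exact permutation p = 1). Ahrr over Arnt was 0.00718 and 0.0149 in controls and 0.0854 and 0.0309 in Brg1-deficient ILC3s.

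**Figure D2:**
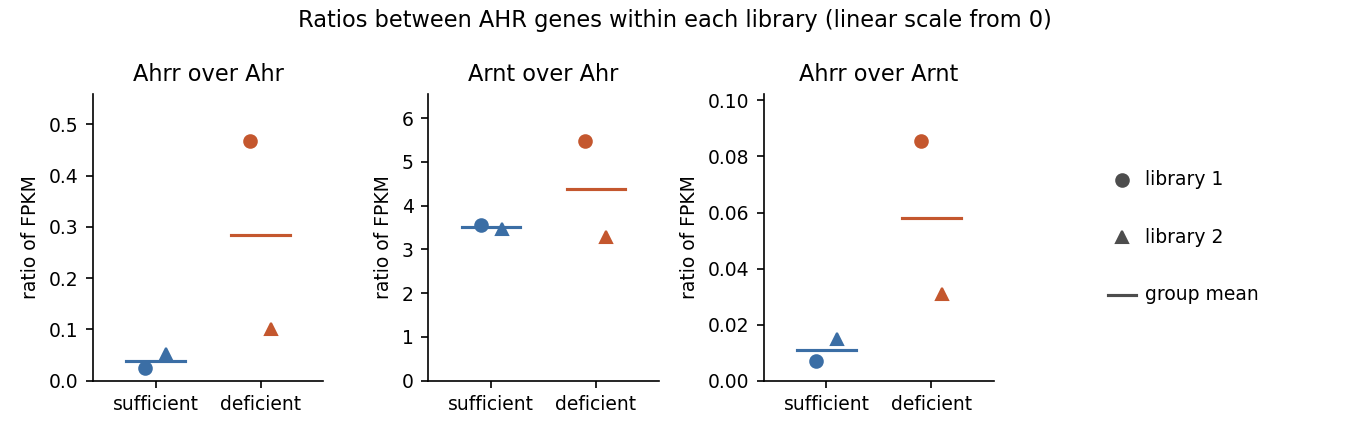
Ratio of FPKM between pairs of AHR genes within each library (vertical axes, linear and starting at 0) for Brg1-sufficient (blue) and Brg1-deficient (orange) ILC3s, with circles for library 1, triangles for library 2 and lines for group means. The ratio of Ahrr to Ahr is 0.467 and 0.101 in Brg1-deficient libraries and 0.0255 and 0.0517 in controls, while the ratios of Arnt to Ahr overlap.

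Tiparp (ENSMUSG00000034640), the target gene that feeds back on AHR stability, lies on the plus strand of chromosome 3 from 65528410 to 65555518 and was the most highly expressed of the 7. It was at 256 and 171 FPKM in controls, against 253 and 202 FPKM without Brg1. The Brg1-deficient libraries lay inside the span of the controls. The means were 214 ± 60.4 FPKM and 228 ± 36.0 FPKM (SD, n = 2 each), 106% of the control mean. The log2 difference was 0.11 (standard error 0.238, 95% interval of folds of FPKM + 1 from 0.713 to 1.63, adjusted p = 0.877 from limma). It changed sign with the libraries used, from -0.18 without Brg1-sufficient library 2 to 0.40 without Brg1-sufficient library 1.

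Cyp1a1 (ENSMUSG00000032315), the cytochrome P450 most widely used as a readout of AHR activity, lies on chromosome 9 from 57687928 to 57703824. It was listed at 0.29 and 0 FPKM in controls and at 0 in both Brg1-deficient libraries. Cyp1b1 (ENSMUSG00000024087), a related P450 gene (chromosome 17, 79701537 to 79715061), had levels of 0.06 and 0.14 FPKM in controls, against 0.10 and 0.17 FPKM without Brg1. Nqo1 (ENSMUSG00000003849), a quinone reductase induced by both AHR and NRF2, lies on chromosome 8 from 107388225 to 107403206. It was at 0.26 and 0.56 FPKM in controls, against 0.25 and 0.31 FPKM without Brg1. The groups overlapped in all 3 genes, and none passed the filter. No difference was detectable at these levels, and fitted without the filter their adjusted p from limma were 0.785, 0.938 and 0.913.

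The study's methods filtered genes for gene ontology by looser criteria, called list criteria here. They were an unadjusted p under 0.05, an adjusted p under 0.4, a mean above 5 FPKM in either group and a fold beyond 0.5 on the log2 scale. Ahr, Arnt and Tiparp, the 3 of the 7 genes above 5 FPKM, did not meet them. The rest of the 7 could not meet them at any difference, since their means were below 5 FPKM. Of the 9095 genes tested above 5 FPKM, 13.3% met these criteria (7.08% lower and 6.25% higher in Brg1-deficient ILC3s). Of all 14739 genes tested, 8.22% did (4.37% lower and 3.85% higher). At an unadjusted p under 0.05 none of the 4 AHR genes tested was called, beside 12.6% of all genes tested (6.47% lower and 6.12% higher). The median absolute log2 difference of all genes tested was 0.25, and those of Ahr (0.24 in size), Arnt and Tiparp were below it. Gene bodies overlap other annotated genes in 3 cases. Ahr overlaps the lincRNA Gm48236 and Tiparp overlaps 4931440P22Rik, both on the opposite strand, and Arnt overlaps the processed pseudogene Gm42672 on the same strand. These were at 0.1 to 2.4, 1.14 to 2.82 and 6.96 to 9 FPKM across libraries. Use of strand in the counting is not given in the sources used here, so reads of the overlapping pairs may not be fully separated.

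**Figure D3:**
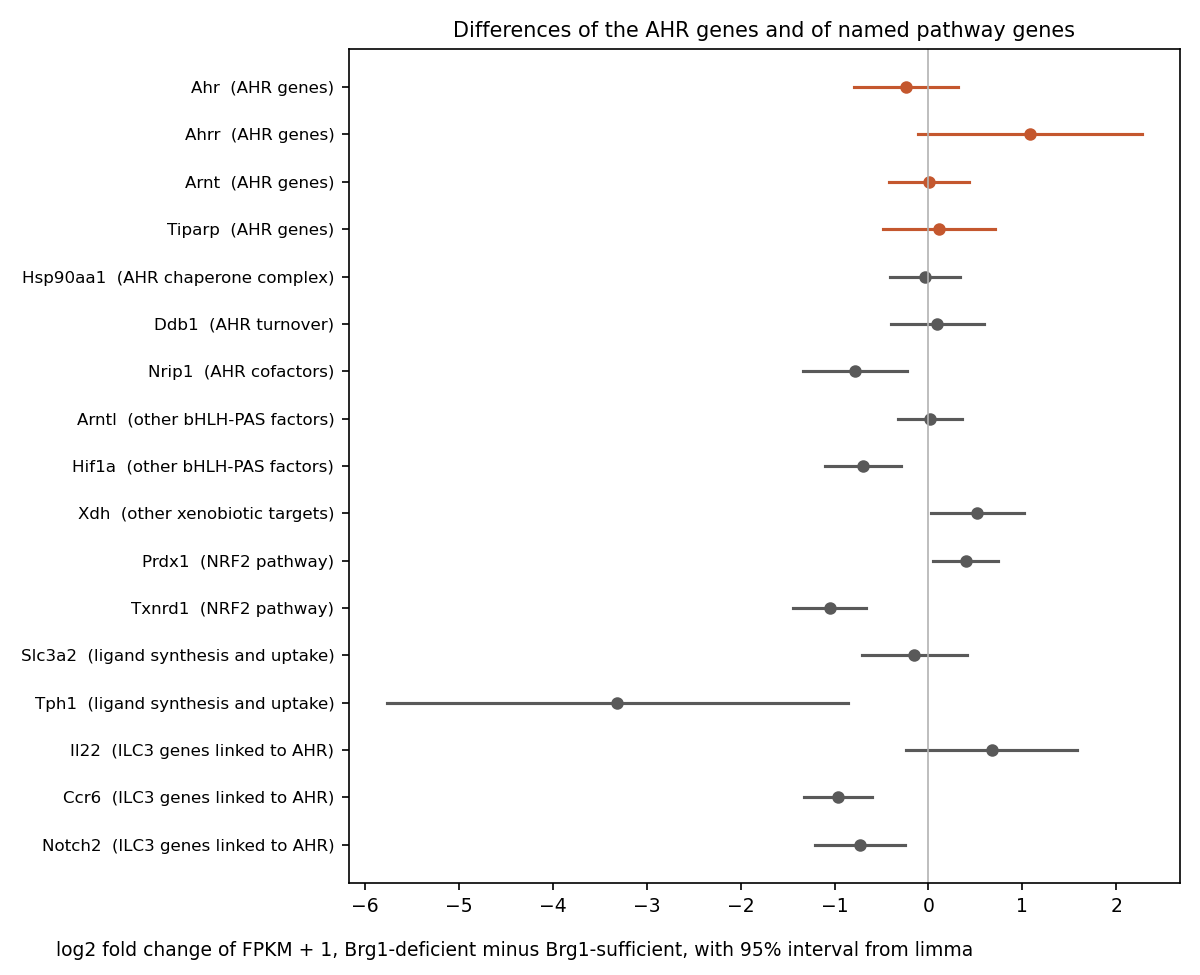
Log2 difference of FPKM + 1, Brg1-deficient minus Brg1-sufficient (horizontal axis), with the 95% interval from limma. The 4 AHR genes tested are orange, and some of the genes of the pathway lists named in the text are grey. The intervals of Ahr, Ahrr, Arnt and Tiparp all include 0, and that of Ahrr is the widest of the 4, from -0.11 to 2.27.

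The other genes of the pathway were taken from 8 lists with 73 genes, of which 52 passed the filter. None had an adjusted p under 0.05 in limma. At an unadjusted p under 0.05 there were 11 of the 52, beside 12.6% of all genes tested. When only protein-coding genes entered the fit, 4 passed an adjusted p under 0.05, Ccr6, Scin and Txnrd1 among them. In that fit 213 lower and 138 higher genes passed, of all 11069 tested. The list criteria were met by 9, of which 7 had lower and 2 had higher FPKM without Brg1. These 9 were 17.3% of the 52, but 41 of the 52 were above 5 FPKM, and among all such genes 13.3% met the criteria (7.08% lower and 6.25% higher). The groups did not overlap in 24 of the 52 (46.2%), beside 44.6% of all genes tested. The median log2 difference of the 52 was -0.02, against 0.03 for all genes tested. Without Brg1-sufficient library 1 the counts were 3 and 1, without Brg1-sufficient library 2 they were 8 and 2, and without either Brg1-deficient library they were 1 and 0.

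**Figure D4:**
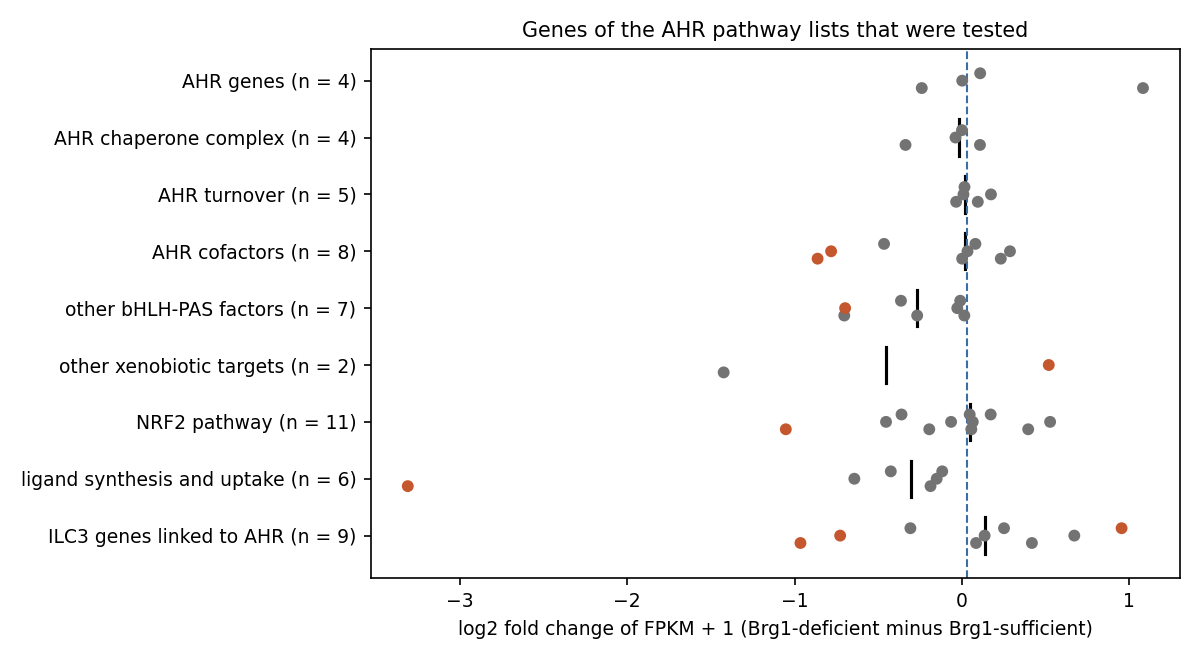
Log2 difference of FPKM + 1, Brg1-deficient minus Brg1-sufficient (horizontal axis), for each gene tested in the 7-gene AHR set and in the 8 pathway lists, with n the number tested. Orange points met the list criteria, black bars are the medians of the 8 pathway lists and the dashed line is the median of all genes tested (0.03). The chaperone and turnover lists lie between -0.34 and 0.17, and the lowest point is Tph1 at -3.31.

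Among genes whose products hold or remove the AHR protein, none met the list criteria. The 4 genes of the cytosolic complex (among them Hsp90aa1, Hsp90ab1 and Ptges3, which encodes p23) had log2 differences from -0.34 to 0.11. Hsp90aa1, the stress-inducible HSP90, was at 3390 and 3131 FPKM in controls, against 3070 and 3282 FPKM without Brg1. Ptges3 had the difference of -0.34 (adjusted p = 0.469 from limma), at 113 and 94.2 FPKM in controls, against 86.2 and 76.9 FPKM without Brg1. It was the only gene of the complex whose groups did not overlap, beside 44.6% of all genes tested. The 5 genes linked to AHR turnover (Cul4b, Ddb1, Tbl3 and Rbx1 of a ubiquitin ligase, and Stub1) lay between -0.03 and 0.17, with overlapping groups in all 5. Ddb1, the highest of them, had means of 54.9 ± 12.1 and 58.2 ± 5.78 FPKM (SD, n = 2 each).

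Among 8 cofactor genes, 2 met the list criteria, both lower in Brg1-deficient ILC3s, and Nrip1 was among them. Of the 8, 7 were above 5 FPKM. Among all genes tested above 5 FPKM, 13.3% met these criteria (7.08% lower and 6.25% higher). Nrip1, which encodes the nuclear receptor cofactor RIP140, was at 131 and 92.1 FPKM in controls, against 70.8 and 56.9 FPKM without Brg1, with a log2 difference of -0.78 (standard error 0.221, adjusted p = 0.248 from limma). Both libraries without Brg1 were below both controls, as for 20.2% of all genes tested. The coactivators Ncoa2, Crebbp and Med1 had log2 differences of 0.03, 0.0021 and 0.08. Those of Ep300, Ncoa3 and Ncoa1 were 0.23, 0.29 and -0.46. The groups did not overlap for Ncoa1 (lower without Brg1) and for Ncoa2 and Ncoa3 (higher), beside 44.6% of all genes tested. None of these coactivators met the list criteria.

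Of 13 other bHLH-PAS genes, 7 were tested, and Hif1a met the list criteria, beside 13.3% of all genes tested above 5 FPKM. The list had 6 negative and 1 positive log2 differences, with a median of -0.27. Arntl2 had a mean above the filter only in controls, so the filter favoured its negative sign. Hif1a, the hypoxia factor that also pairs with ARNT, was at 47.6 and 40.8 FPKM in controls, against 28.3 and 25.4 FPKM without Brg1. Both Brg1-deficient libraries were below both controls, as for 20.2% of all genes tested. The log2 difference was -0.70 (standard error 0.16, adjusted p = 0.18 from limma). Arntl, the clock partner gene of the family, had the highest mean of the list over all 4 libraries (Hif1a was higher in controls) and was at 39.9 and 41.2 FPKM in controls, against 41.1 and 40.9 FPKM without Brg1. Epas1, another hypoxia factor gene, was at 38.7 and 30.15 FPKM in controls, against 28.4 and 24.4 FPKM without Brg1. Its log2 difference was -0.36 (adjusted p = 0.508 from limma), and its groups did not overlap. Arnt2, the paralogue of Arnt, was at 2.53 and 1.11 FPKM in controls, against 1.68 and 0.92 FPKM without Brg1.

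Further genes known to be induced through AHR in other tissues were mostly near 0. Of 10, the 8 that did not pass the filter (Cyp1a2, Cyp2s1, Aldh3a1, Ugt1a6a, Ugt1a6b, Gsta1, Gsta2 and Serpinb2) were below 1 FPKM in every library, like Cyp1a1 and Cyp1b1. Xdh, which encodes xanthine dehydrogenase, was at 18.5 and 25.7 FPKM in controls, against 31.4 and 32.1 FPKM without Brg1, a log2 difference of 0.52 (standard error 0.198, adjusted p = 0.377 from limma) that met the list criteria. Scin, which encodes the actin-severing protein scinderin, lay just under the 5 FPKM limit and is named because of its value. It was at 5.48 and 4.47 FPKM in controls, against 1.28 and 1.16 FPKM without Brg1, with a log2 difference of -1.42 (standard error 0.251, adjusted p = 0.11 from limma). The tested genes of this list thus had opposite signs.

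Nqo1 is also a target of NRF2, encoded by Nfe2l2, and 11 of 12 genes of that pathway were tested. Txnrd1, which encodes cytosolic thioredoxin reductase, was at 30.0 and 29.0 FPKM in controls, against 14.4 and 13.1 FPKM without Brg1. The Brg1-deficient mean was 46.5% of the control mean, each group's libraries lay close together, and the log2 difference was -1.05 (standard error 0.153, adjusted p = 0.086 from limma). It was the only gene of the list to meet the list criteria, beside 13.3% of all genes tested above 5 FPKM. Prdx1, a peroxiredoxin, was at 251 and 278 FPKM in controls, against 335 and 362 FPKM without Brg1, with a log2 difference of 0.40 (standard error 0.137, adjusted p = 0.335 from limma) that did not reach the fold limit. Nfe2l2 itself was at 33.2 and 31.6 FPKM in controls, against 28.7 and 27.7 FPKM without Brg1. The list had 5 negative and 6 positive log2 differences.

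Of 12 genes for the synthesis or uptake of tryptophan-derived ligands, 6 were tested. All 6 had negative log2 differences, and 1 met the list criteria, beside 13.3% of all genes tested above 5 FPKM. Tph1 and another of the 6 had a mean above the filter only in controls, so the filter itself favoured their negative sign. The common sign is therefore not read as a result about the list. Ido1, Ido2 and Tdo2, which start the kynurenine pathway, were below 1 FPKM in every library. Tph1, which turns tryptophan towards serotonin, was at 39.7 and 3.79 FPKM in controls, against 0.66 and 0.19 FPKM without Brg1. The controls differed from each other by far more than the Brg1-deficient libraries did, and control library 1, the higher of the pair, was also the library with the higher summed ILC2 markers. The part of ILC2s in the Tph1 values was not tested. The log2 difference of -3.31 (standard error 0.976, adjusted p = 0.265 from limma) became -1.77 without Brg1-sufficient library 1 and -4.86 without Brg1-sufficient library 2. Slc3a2, the heavy chain of the large amino acid transporter, was at 497 and 362 FPKM in controls, against 438 and 333 FPKM without Brg1. The sign of its log2 difference changed with the library left out.

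The last list held 9 ILC3 genes that the literature on AHR-deficient mice or AHR ligands links to the receptor. All 9 were tested, and 2 were lower and 1 higher by the list criteria. Of the 9, 8 were above 5 FPKM. Among all genes tested above 5 FPKM, 7.08% were lower and 6.25% higher by these criteria. With so few genes, these counts are not read as a result about the list. Ccr6, the chemokine receptor of lymphoid tissue inducer-like ILC3s, was at 186 and 203 FPKM in controls, against 92.9 and 106 FPKM without Brg1 (log2 difference -0.96, standard error 0.143, adjusted p = 0.0901 from limma). Its groups did not overlap, beside 44.6% of all genes tested. Notch2, a receptor of the Notch pathway, was at 21.2 and 17.0 FPKM in controls, against 12.0 and 10.2 FPKM without Brg1 (log2 difference -0.73, standard error 0.191, adjusted p = 0.226 from limma). Kit, a growth factor receptor whose expression in ILC3s is known to depend on AHR, was at 245 and 250 FPKM in controls, against 285 and 242 FPKM without Brg1, with overlapping groups and a log2 difference of 0.09 (adjusted p = 0.836 from limma).

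Il22, the cytokine gene best known as a target of AHR in these cells, was at 8328 and 10408 FPKM in controls, against 21159 and 10408 FPKM without Brg1. The equal values of control library 2 and Brg1-deficient library 2 follow from the shared distribution of the deposited values, in which Il22 held rank 2 of all genes in both. It held rank 4 in control library 1 and rank 1 in Brg1-deficient library 1. Its log2 difference of 0.67 (standard error 0.363, adjusted p = 0.52 from limma) is therefore a difference between neighbouring top ranks, and the groups overlapped at the shared value. Brg1-deficient library 1 held the highest value of Il22 and also that of Ahrr.

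The genes with the pattern most like that of each AHR gene above 5 FPKM were sought among 8088 other protein-coding genes above 5 FPKM, by the Euclidean distance between log2(FPKM + 1) profiles centred over the 4 libraries. The nearest to Ahr were Gvin1, Gtpbp8 and Arpp19, at distances of 0.0363, 0.043 and 0.05. Those nearest to Arnt were Cstf2t, Atp6v1f and Isca1, at 0.0143, 0.0277 and 0.0282, and those nearest to Tiparp were Zfx, Abt1 and Gpatch2l, at 0.034, 0.0403 and 0.0517. With 4 libraries such likeness is common, and 141, 669 and 146 genes lay within a distance of 0.2 of Ahr, Arnt and Tiparp. None of the 9 nearest genes belongs to the pathway lists.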

How the data were processed

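The authors mapped single-end reads to GRCm38.p5 with STAR 2.5 and quantified genes with RSEM 1.2 on GENCODE M16, and deposited 1 FPKM value per gene and library. The sorted deposited FPKM values agreed within 1% across the 4 libraries at 99.3% of 13693 ranks with a mean above 1 FPKM, as quantile normalization gives, so differences in total RNA are not seen. Counts were not used here, depth is unknown, and counting intervals were not computed.

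The test took 14739 genes whose mean exceeded 1 FPKM in at least 1 group and used limma 3.58.1 in R 4.3.3 (eBayes with a trend) on log2(FPKM + 1) with no covariate. P-values were adjusted by Benjamini-Hochberg over all these genes. The p-values rest on the spread between 2 libraries per group, which limma draws towards the spread of other genes at a similar level. They are thus not a measure of the spread of 1 gene alone. The 7 genes, the lists and the rules were chosen with earlier results of these data known. From each list the text names the gene of highest mean FPKM. It also names up to 3 of the largest difference with an unadjusted p under 0.05 and a mean above 5 FPKM. Genes added after their values were seen were Ptges3, Ncoa1, Ncoa2, Ncoa3, Ep300, Crebbp, Med1, Epas1, Arnt2, Arntl2, Scin, Nfe2l2 and Kit. The genes listed as below 1 FPKM were also added then. Some genes counted in the lists, and the Cre driver, are not reported here by name. For each AHR gene above 5 FPKM it names the 3 genes nearest in pattern. Gene positions came from GENCODE M21 on GRCm38. A test on counts was the first choice and could not be used on FPKM. Alternatives were a pseudocount of 0.1, no filter, a filter at 5 FPKM, a replicate block, limma without trend, robust eBayes, quantile normalization, median centring, protein-coding genes only, and leaving out each library. The limma script was tested on simulated data.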

Additional observations from a re-analysis of the deposited data

How the results depend on the processing

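No AHR gene that entered a fit passed an adjusted p under 0.05 or the list criteria in any of the 13 alternative fits. Only Ahr, Arnt and Tiparp were high enough to meet the list criteria. With all 4 libraries, only the pseudocount and the scaling can move a log2 difference, and the values were already close to quantile normalized. A pseudocount of 0.1 gave -0.26 for Ahr and 2.04 for Ahrr, and a filter at 5 FPKM removed Ahrr. Leaving out each library in turn gave -0.46 to -0.02 for Ahr, 0.97 to 1.63 for Ahrr (3 fits), -0.12 to 0.12 for Arnt and -0.18 to 0.40 for Tiparp. Signs also turned for Hsp90aa1 (-0.10 to 0.0197), Ddb1 (-0.13 to 0.32), Arntl (-0.0089 to 0.039) and Slc3a2 (-0.38 to 0.0779). The lone library of a group is assumed there to vary like the other group.

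At an adjusted p under 0.05, 33 of all genes had lower and 12 had higher FPKM without Brg1. The counts were 73 and 41 above 5 FPKM, 51 and 21 with robust eBayes, and 213 and 138 among protein-coding genes. They were 0 and 0 in limma without the filter (1400 and 1308 at an unadjusted p under 0.05), 0 and 0 without trend (965 and 903), and 0 and 0 without any 1 library (507 to 1675 and 735 to 1507). The list criteria gave 644 and 568 genes, 236 and 161 without the filter, and 61 to 671 and 38 to 745 with a library left out. Of the pathway genes, 7 and 2 met them, 2 and 1 without the filter, 7 and 1 without trend, and 1 to 8 and 0 to 2 with a library left out. At an adjusted p under 0.05 there were 0 pathway genes, 1 above 5 FPKM (Txnrd1), and 4 among protein-coding genes (with Ccr6, Scin and Txnrd1). By Pearson correlation, 1 of the 3 nearest genes was shared for Ahr, 1 for Arnt and 0 for Tiparp. The cause of these shifts was not tested.

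A replicate block gave 248 lower and 150 higher genes and 4 pathway genes (with Ccr6, Tph1 and Txnrd1). Nothing in the labels pairs the libraries, and the deviations of same-numbered libraries correlated at -0.00039 across genes.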
